A study of Mus musculus with 51 samples.

Results

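Cloned mouse blastocysts were compared with blastocysts made by in vitro fertilisation (IVF), gene by gene over all genes on the array. The comparison used 8 of the 51 arrays of the series, chosen by their labels: 5 arrays that each held 1 Sertoli cell cloned blastocyst and 3 arrays that each held 1 IVF blastocyst. The clones were made by nuclear transfer of a Sertoli cell, the supporting cell of the testis tubule, with B6CBF1 donor cells and B6D2F1 recipient oocytes. The IVF embryos came from B6D2F1×B6D2F1 crosses. Both groups were cultured in KSOM medium and taken at 84 hours, counted from activation for clones and from sperm addition for IVF embryos. Cloned and IVF morulae at 72 hours, again 5 and 3 arrays, served for one further comparison. Of 45101 probe sets those with exactly 1 gene symbol were kept, and each of the resulting 18193 genes was read from its most variable probe set, by SD across the 51 arrays. Cloning and the donor strain changed together, so their effects cannot be told apart.

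The blastocyst is the first embryonic stage with separate cell layers. An outer trophectoderm, marked by Cdx2, pumps fluid into the cavity and later forms placenta, while the inner cell mass, marked by Nanog and Sox2, gives rise to the body and to the Gata6-positive primitive endoderm. In nuclear transfer a somatic nucleus takes the place of the gamete nuclei. A Sertoli cell nucleus is male and carries a single X chromosome. Xist, the noncoding RNA that coats and silences an X chromosome in female cells, is known from earlier mouse work to be switched on in cloned embryos of either sex. A set of genes is silenced on the maternal allele by the histone mark H3K27me3 laid down in the oocyte, a mark that somatic nuclei lack, and these genes are known to be read from both alleles in cloned mouse embryos.

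The deposited values are log2 signals with a baseline of 0 set separately for each probe set, close to the median of the 51 arrays. A value of 3 therefore means 3 log2 units above that gene's own baseline, and levels of different genes cannot be set against each other. All differences below are clone minus IVF on the log2 scale with their standard error (SE), and ± after a group mean is the SD over 5 clones or 3 IVF embryos. A gene was called where limma's moderated test, adjusted by Benjamini-Hochberg over all 18193 genes, gave a value under 0.05. Each array holds a whole embryo, so fewer cells of a type and less RNA per cell cannot be told apart. Trophectoderm was present in both groups: Cdx2 stood at 8.08 ± 0.24 in clones and 8.23 ± 0.039 in IVF embryos, against -0.12 ± 0.23 and 1.51 ± 2.53 in cloned and IVF 8-cell embryos.

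Between the groups 1125 genes were called (6.18% of those tested), with 517 higher in clones (2.84%) and 608 lower (3.34%). Of these, 263 were higher by at least 2-fold (1.45%) and 270 lower by at least 2-fold (1.48%). All 1125 had clone and IVF values that did not overlap, a property that 1154 of all genes had in the higher direction (6.34%) and 1808 in the lower direction (9.94%). Correlations between embryos over all genes ran from 0.911 to 0.936 among clones, from 0.908 to 0.936 among IVF embryos and from 0.828 to 0.879 between the groups. A larger spread among clones was not found. The root mean square deviation from the group mean was 0.354 ± 0.0249 in clones and 0.367 ± 0.0343 in IVF embryos (exact permutation test, two-sided p = 0.571). With 5 and 3 embryos this test cannot exclude a difference in spread. The largest deviation, 0.406, was that of the IVF embryo of replicate 1, which also differed from the others in Y-linked genes (below).

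The groups also separated on measures of the arrays themselves. The probe sets for poly-A control RNAs, bacterial transcripts of the array maker's labelling kit, averaged -0.489 ± 0.259 in clones and 0.708 ± 0.466 in IVF embryos. The difference between 3′ and 5′ probe sets of Actb and Gapdh averaged -1.18 ± 0.307 in clones and -2.00 ± 0.364 in IVF embryos. Because every probe set has its own zero, only the contrast between groups can be read from these averages. For each measure the groups did not overlap, and the exact two-sided permutation p was 0.0357, the smallest that 56 splits allow (0.0714 after adjustment over 4 array measures). With the 3′ minus 5′ difference as a covariate 8 genes were called, and with the poly-A controls 6. Idi1, Asz1 and Cd28 were among them each time. The first covariate left the direction of all 1125 genes as it was, the second that of 1124. Because each measure separates the groups completely, the share of a difference that goes with the array and the share that goes with cloning cannot be told apart.

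**Figure D1:**
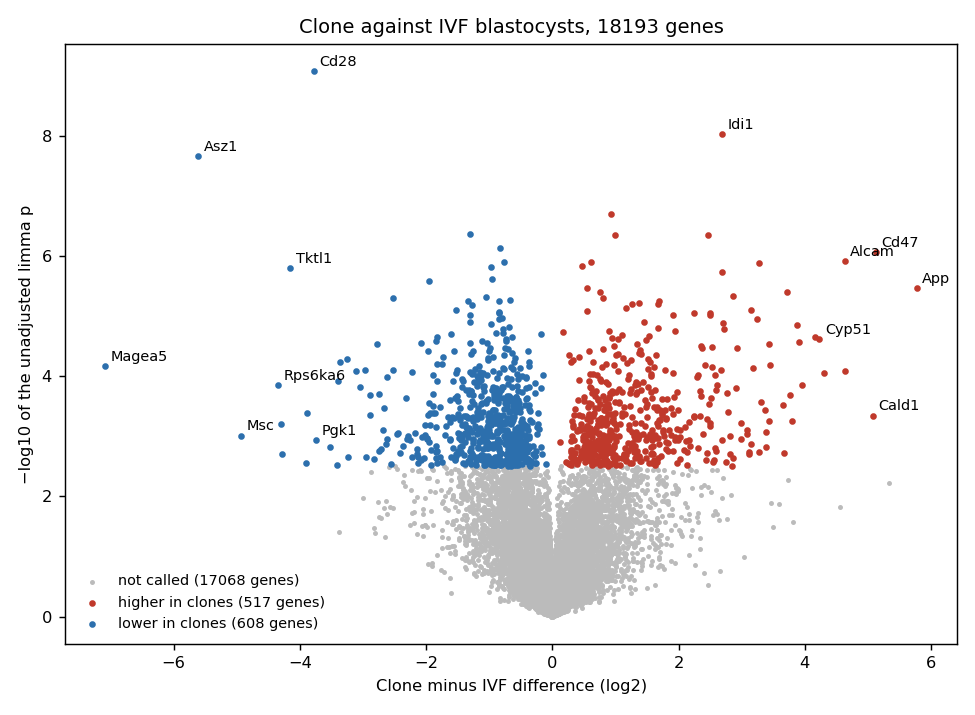
Clone minus IVF difference on the log2 scale (x axis) against the negative log10 of the unadjusted limma p (y axis), with 1 point for each of 18193 genes. The 517 genes called higher in clones are red, the 608 called lower are blue and the 17068 others grey; Magea5 lies farthest to the left at -7.08 and App farthest to the right at 5.78.

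The 14 largest rises included several surface proteins. App, the amyloid precursor protein, read 5.09, 6.13, 6.74, 5.36 and 6.47 in the clones, against 0.0033, -0.058 and 0.61 in the IVF embryos. Every clone lay more than 4 log2 units above every IVF embryo, and the difference was 5.78 ± 0.42 (adjusted p = 0.00297). Cd47, a surface protein that restrains engulfment by phagocytes, read 4.44, 5.01, 5.36, 4.35 and 4.35 in the clones, against -0.66, 0.042 and -0.67 in the IVF embryos, a difference of 5.13 ± 0.30 (adjusted p = 0.00173). Alcam, an adhesion molecule of the immunoglobulin family, stood near its baseline in all 3 IVF embryos at -0.096, -0.066 and -0.23, while the clones read 5.16, 4.92, 4.03, 4.04 and 4.37 (difference 4.63 ± 0.29, adjusted p = 0.00181). Cald1, the actin-binding protein caldesmon, averaged 5.41 ± 1.35 in clones and 0.33 ± 0.72 in IVF embryos, and Cd81, a tetraspanin, averaged 5.32 ± 0.56 in clones and 0.68 ± 1.16 in IVF embryos.

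The other large rises came from varied families, and in each the 5 clones lay above the 3 IVF embryos. Cited2, a transcriptional co-regulator, averaged 1.12 ± 0.42 in clones and -3.17 ± 1.17 in IVF embryos (difference 4.30 ± 0.52). Timp3, an inhibitor of matrix metalloproteinases, was near baseline in IVF embryos at -0.031, -0.043 and -0.066 and read 3.50, 4.94, 4.45, 3.22 and 4.50 in clones. Rab15, a small GTPase of endosomes, differed by 3.92 ± 0.40, Plcb4, a phospholipase C, by 3.80 ± 0.63, and Trim35, a RING-finger protein, by 3.77 ± 0.52. Lncenc1, a long noncoding RNA of embryonic stem cells, differed by 3.71 ± 0.28. Tceal8, an X-linked relative of a transcription elongation factor, read -0.44, 0.74, -0.34, -1.73 and -0.75 in the clones, against -4.26, -4.23 and -4.88 in the IVF embryos. Cyp51 and Mvd, the remaining members of the 14 largest rises, belong to sterol synthesis.

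Genes of sterol synthesis and uptake rose together. Cholesterol is built from acetyl-CoA through the mevalonate pathway, squalene and lanosterol, and the enzymes are transcribed under the factor SREBP-2, the product of Srebf2, which is known to act at promoters together with NF-Y, a factor that binds CCAAT. Of 21 measured genes 16 were called higher and none lower, against 2.84% and 3.34% of all genes. The median difference over the 21 was 2.10, against -0.0104 over all genes. The first steps were among them: Hmgcs1, which makes HMG-CoA, differed by 2.53 ± 0.26, and the mevalonate enzymes Mvk by 2.10 ± 0.36, Pmvk by 1.18 ± 0.13 and Mvd by 3.88 ± 0.35. Idi1, the isopentenyl diphosphate isomerase, read 2.73, 2.89, 2.79, 2.66 and 2.75 in the clones, against 0, 0.26 and -0.041 in the IVF embryos. Embryos of a group lay close together, at 2.76 ± 0.085 in clones and 0.073 ± 0.16 in IVF embryos, and the difference was 2.69 ± 0.082 (adjusted p = 8.53e-05).

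The later steps showed the same pattern. Fdps and Fdft1, which make farnesyl diphosphate and squalene, differed by 1.67 ± 0.28 and 2.34 ± 0.37. Sqle, the squalene epoxidase, differed by 2.72 ± 0.25 and Lss, which closes lanosterol's rings, by 1.37 ± 0.11. Cyp51, the lanosterol demethylase, read 3.81, 3.09, 3.05, 2.94 and 2.95 in the clones, against -1.66, 0 and -1.54 in the IVF embryos, and was the highest-ranked enzyme of the list by size at 4.23 ± 0.42 (adjusted p = 0.00597). Msmo1 read 3.11, 2.77, 2.71, 2.50 and 2.39 in the clones, against 0.16, 0.10 and -0.23 in the IVF embryos. Tm7sf2, Hsd17b7 and Sc5d, further enzymes between lanosterol and cholesterol, differed by 3.44 ± 0.57, 2.86 ± 0.22 and 3.65 ± 0.54. Srebf2 itself differed by 1.88 ± 0.34 (adjusted p = 0.0281), and Scd2, a fatty acid desaturase, by 1.06 ± 0.14. The 5 members that were not called were Stard4 (0.72), Nsdhl (0.68), Insig1 (0.54), Dhcr7 (0.52) and Ebp (-0.27). Leaving out single embryos gave 12 to 16 called members, and only Idi1 was called under either array covariate.

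**Figure D2:**
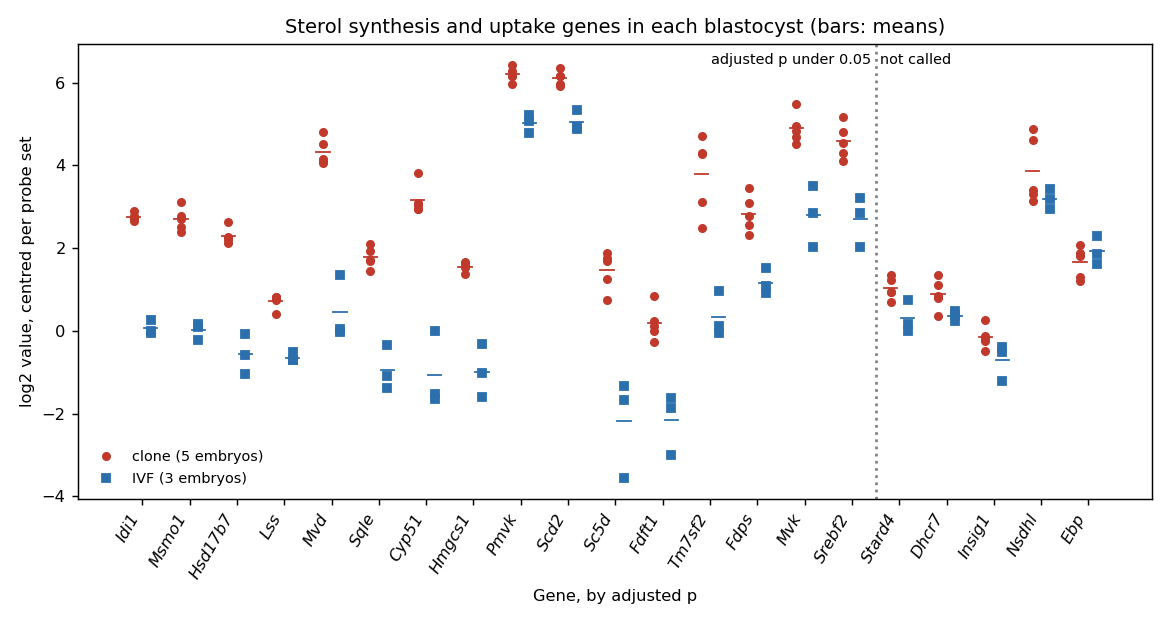
Centred log2 values (y axis) of the 21 sterol genes (x axis, ordered by adjusted p) in each of 5 clones (red circles, left) and 3 IVF embryos (blue squares, right), with short bars at the group means. In the 16 genes left of the dotted line every clone lies above every IVF embryo; in Ebp, at the far right, the clone mean is the lower one.

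The proximal promoters of these genes shared a short motif. RefSeq (GRCm38.p6) gave a window of 250 bases upstream of the start for 16 of the 21 genes, 12 of them called. CCAAT or its reverse complement ATTGG occurred in all 16, and in 37.5% of 27025 genes with such a window. TCACNCCAC, a form of the sterol regulatory element, or its reverse complement occurred in 1 of the 16, Hmgcs1, and in 1.22% of all genes. No match says only that these letters were not in the window. Of 5 promoters of enzymes with large rises, printed 5′ to 3′ on the gene's own strand with both motifs in capitals, Hmgcs1 lies at chr13:119690101-119690350 (plus strand), Idi1 at chr13:8885356-8885605 (plus strand), Mvd at chr8:122443423-122443672 (minus strand), Cyp51 at chr5:4104698-4104947 (minus strand) and Msmo1 at chr8:64733579-64733828 (minus strand). Hmgcs1 holds the sterol element 137 to 129 bases upstream of the start, between copies of ATTGG, and the Cyp51 window holds a single CCAAT 29 to 25 bases upstream.
Hmgcs1: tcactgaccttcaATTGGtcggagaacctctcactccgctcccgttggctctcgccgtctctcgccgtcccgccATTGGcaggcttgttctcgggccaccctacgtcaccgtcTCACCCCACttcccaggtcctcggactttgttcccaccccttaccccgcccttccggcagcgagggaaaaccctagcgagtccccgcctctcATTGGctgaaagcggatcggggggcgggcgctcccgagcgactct
Idi1: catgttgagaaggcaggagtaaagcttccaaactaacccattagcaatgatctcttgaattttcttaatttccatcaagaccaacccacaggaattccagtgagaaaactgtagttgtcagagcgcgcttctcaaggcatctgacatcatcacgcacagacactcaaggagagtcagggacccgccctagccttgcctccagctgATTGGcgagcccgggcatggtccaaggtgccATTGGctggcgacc
Mvd: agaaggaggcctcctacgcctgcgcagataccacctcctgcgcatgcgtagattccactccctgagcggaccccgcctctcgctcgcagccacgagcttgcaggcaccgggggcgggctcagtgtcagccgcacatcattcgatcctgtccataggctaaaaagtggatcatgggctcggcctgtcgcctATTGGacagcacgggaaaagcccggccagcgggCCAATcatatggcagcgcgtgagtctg
Cyp51: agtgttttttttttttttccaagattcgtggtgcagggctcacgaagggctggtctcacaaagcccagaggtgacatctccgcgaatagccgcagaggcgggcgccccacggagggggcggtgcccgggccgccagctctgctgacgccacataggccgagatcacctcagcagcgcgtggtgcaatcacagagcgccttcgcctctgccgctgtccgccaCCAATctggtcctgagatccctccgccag
Msmo1: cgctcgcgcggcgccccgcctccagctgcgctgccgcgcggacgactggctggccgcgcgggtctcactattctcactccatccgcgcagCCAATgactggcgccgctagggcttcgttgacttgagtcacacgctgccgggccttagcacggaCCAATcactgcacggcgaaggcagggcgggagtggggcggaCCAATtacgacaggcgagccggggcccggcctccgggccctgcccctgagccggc

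At the morula stage, 72 hours, the sterol genes had not yet passed the test. None of the 21 was called by limma there and 1 was higher at an unadjusted p under 0.05, with a median difference of 0.0144, when 0.165% of all genes were called in either direction. The difference between clones and IVF embryos was larger at the blastocyst than at the morula stage for 8 of the 21 (interaction test over 16 arrays), against 0.978% of all genes in that direction. These were Mvd (4.26 ± 0.49), Cyp51 (3.76 ± 0.78), Sqle (3.48 ± 0.81), Tm7sf2 (3.30 ± 0.59), Msmo1 (3.27 ± 0.46), Hmgcs1 (3.17 ± 0.66), Idi1 (2.68 ± 0.39) and Mvk (2.29 ± 0.52). Between morula and blastocyst the mean of 19 of the 21 genes went up among clones and that of 9 among IVF embryos, with median changes of 1.64 and -0.267. Idi1 went up to 2.76 ± 0.085 in cloned blastocysts from 1.26 ± 0.56 in cloned morulae, while IVF embryos read 0.073 ± 0.16 as blastocysts and 1.24 ± 0.49 as morulae. At the 1-cell, 2-cell, 4-cell and 8-cell stages 0, 0, 0 and 1 of the 21 were higher and 2, 1, 0 and 1 were lower, beside 6.31%, 2.37%, 2.26% and 6.62% of all genes called in either direction.

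Of the 14 largest falls 8 were X-linked, and Magea5 led them. Magea5, an X-linked member of the melanoma antigen family that is usually restricted to testis and tumours, read -0.12, -0.098, -0.097, -0.14 and -0.11 in the clones, against 4.73, 8.83 and 7.35 in the IVF embryos. All 5 clones sat at the baseline, and the difference was -7.08 ± 0.82 (adjusted p = 0.00908). Asz1, a germ cell protein of the piRNA pathway on chromosome 6, read -2.76, -2.28, -2.28, -2.27 and -2.28 in the clones, against 2.81, 3.39 and 3.51 in the IVF embryos (difference -5.61 ± 0.19, adjusted p = 0.000131). Cd28, a T cell co-stimulatory receptor, had the smallest adjusted p of all genes, 1.53e-05, with -0.070, -0.12, -0.068, -0.066 and -0.12 in the clones, against 3.86, 3.72 and 3.47 in the IVF embryos. Msc, a bHLH repressor, spread widely among clones at -0.30, -0.066, 2.10, 0.65 and 3.45, against 5.79, 6.39 and 6.12 in IVF embryos.

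Besides Magea5 the X-linked genes in this group were Rps6ka6, an S6 kinase of the RSK family (-4.34 ± 0.57), Mageb16 (-4.30 ± 0.72), Fmr1nb, a cancer-testis antigen (-4.28 ± 0.88), Tktl1, a transketolase-like protein (-4.15 ± 0.27), Mbnl3, a splicing regulator (-3.90 ± 0.86), Pgk1, the glycolytic phosphoglycerate kinase (-3.74 ± 0.70), and Trap1a, a tumour rejection antigen (-3.41 ± 0.76). Tktl1 was nearly constant over the clones at -3.86 ± 0.026, while IVF embryos read -0.39, 0.30 and 0.97. Pgk1 read -1.69, -0.79, -1.53, -3.77 and -0.97 in the clones, against 1.53, 2.55 and 1.89 in the IVF embryos. The autosomal genes in the group were Asz1, Msc, Cd28, Stmn3, a microtubule regulator (-3.89 ± 0.60), Akr1c21, a steroid dehydrogenase (-3.53 ± 0.69), and Oas1f, of the oligoadenylate synthetase family (-3.39 ± 0.43). Of 22 measured genes of the Xist region and of X-linked cancer-testis families, 4 were called lower and none higher. Over all genes 3.34% were lower and 2.84% higher, and of X-linked genes 11.02% were lower. The 4 were Magea5, Mageb16, Fmr1nb and Tktl1, all of them already among the largest falls. The median difference of the list was -0.0535. Ftx, called higher and given below, was not in this list. At an unadjusted p under 0.05, 7 genes of the list were lower and 1 was higher, beside 3583 of all 18193 genes in either direction.

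The X chromosome as a whole stood lower in clones. Of its 617 genes 68 were called lower (11.02%) and 2 higher, Ftx and Tceal8. On the autosomes 540 of 17401 were lower (3.10%) and 511 higher (2.94%), and no autosome had a larger share of lower genes than chromosome 10 with 4.07%. The clone mean was below the IVF mean for 81.0% of X-linked genes and 58.7% of autosomal genes. The 68 genes ran along the chromosome from Ezhip at 6081218 to Tceanc at 166499810 (RefSeq gene starts, GRCm38.p6). With the chromosome cut into 4 equal lengths, 9.79%, 9.26%, 8.59% and 15.2% of genes were lower, and Magea5 lies in the last stretch. Their median difference was -1.76, and 62 of the 68 were lower by at least 2-fold.

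These genes serve varied functions. Atrx, a chromatin remodeller (-2.74 ± 0.38), Huwe1, a ubiquitin ligase (-1.22 ± 0.26), Usp9x, a deubiquitinase (-1.33 ± 0.11), Msn, the actin linker moesin (-2.96 ± 0.62), Efnb1, an ephrin (-2.53 ± 0.20), Phf6, a chromatin-associated protein (-1.28 ± 0.14), and Hsd17b10, a mitochondrial dehydrogenase (-2.32 ± 0.33), were all lower. Ezhip, an inhibitor of the enzyme that writes H3K27me3, read -2.25, -2.20, -2.30, -1.72 and -2.29 in the clones, against 0.11, -0.041 and -0.63 in the IVF embryos (adjusted p = 0.0069). At the morula stage 60 of the 68 had a lower mean in clones and 3 were called there (Mageb16, Rps6ka6 and Fgd1), beside 0.0879% of all genes. In the interaction test the difference was more negative at the blastocyst for 6 of the 68 and less negative for 1, Pnma5. Over all genes these shares were 0.945% and 0.978%. The 68 were picked for low blastocyst values that the interaction test uses again, so these counts support nothing.

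**Figure D3:**
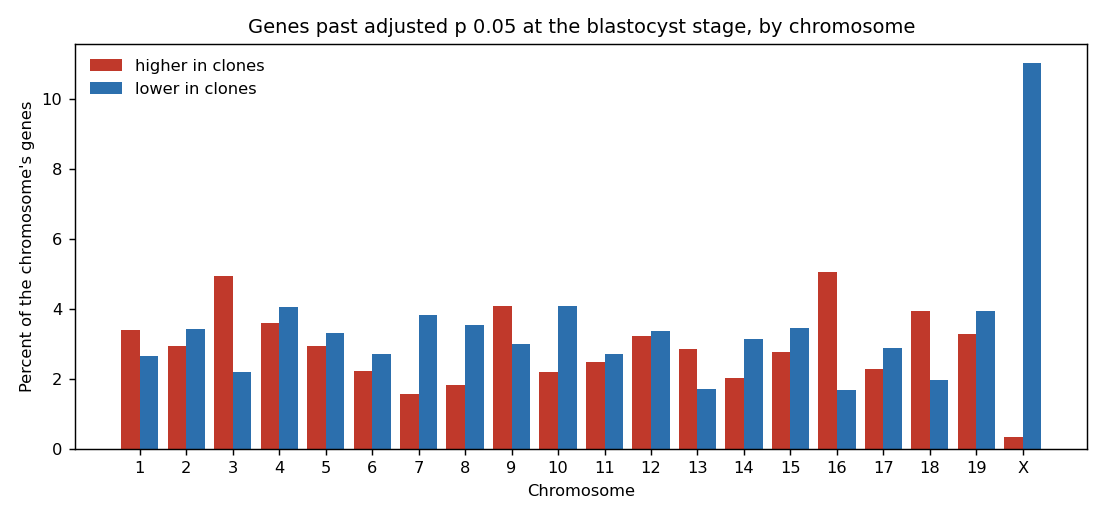
Percent of each chromosome's genes (y axis) called higher (red, left) and lower (blue, right) in clones at the blastocyst stage, for chromosomes 1 to 19 and X (x axis). The X chromosome has 11.02% lower and 0.324% higher, while the autosomes together have 3.10% and 2.94%.

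The sex of the IVF embryos bears on these counts, because the embryos were not sexed in the labels. Eif2s3y, a Y-linked translation factor, read 2.35, 2.20, 2.47, 2.13 and 2.09 in the clones, against -5.52, 2.24 and 2.06 in the IVF embryos, so the IVF embryo of replicate 1 stood more than 7 log2 units below every other embryo. Kdm5d and Uty, Y-linked histone demethylases, were lowest in the same embryo at -0.78 and -0.34. That embryo also had the highest Xist value. Xist read 0.48, 1.33, 2.50, 1.96 and 0.56 in the clones, against 3.43, -2.57 and -3.99 in the IVF embryos, and clones lay between the IVF embryo of replicate 1 and the other two. Over all 8 embryos the difference was 2.41 ± 1.64 (adjusted p = 0.514), and without the IVF embryo of replicate 1 it was 4.65 (adjusted p = 0.0356). Ftx, a noncoding gene that activates Xist, read 3.38, 3.52, 3.68, 3.27 and 3.10 in the clones, against 2.21, -0.19 and -0.31 in the IVF embryos (difference 2.82 ± 0.58, adjusted p = 0.0396). Rhox5, a homeobox gene of the X, read 8.18, 7.68, 7.87, 6.28 and 8.25 in the clones, against 5.86, 1.57 and -0.50 in the IVF embryos, and its difference of 5.34 ± 1.36 was not called (adjusted p = 0.0739), while without the IVF embryo of replicate 1 it was 7.11 and was called (adjusted p = 0.0162).

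Without the IVF embryo of replicate 1, 38 X-linked genes were called lower. Of the 8 X-linked genes among the largest falls Magea5 (-8.20), Tktl1 (-4.50) and Rps6ka6 (-4.32) were still called, and the other 5 kept their direction with adjusted p between 0.0701 and 0.125. The clone mean was below the mean of the remaining IVF embryos for 70.5% of X-linked and 50.9% of autosomal genes. Set against single IVF embryos, the clone mean was lower for 85.4% of X-linked genes with replicate 1, for 66.5% with replicate 2 and for 69.2% with replicate 3, and for 63.6%, 48.1% and 51.7% of autosomal genes. Leaving out the IVF embryo of replicate 2 or 3 gave 28 and 27 X-linked genes called lower, and leaving out clone 1, 2, 3, 4 or 5 gave 45, 36, 41, 37 and 62.

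**Figure D4:**
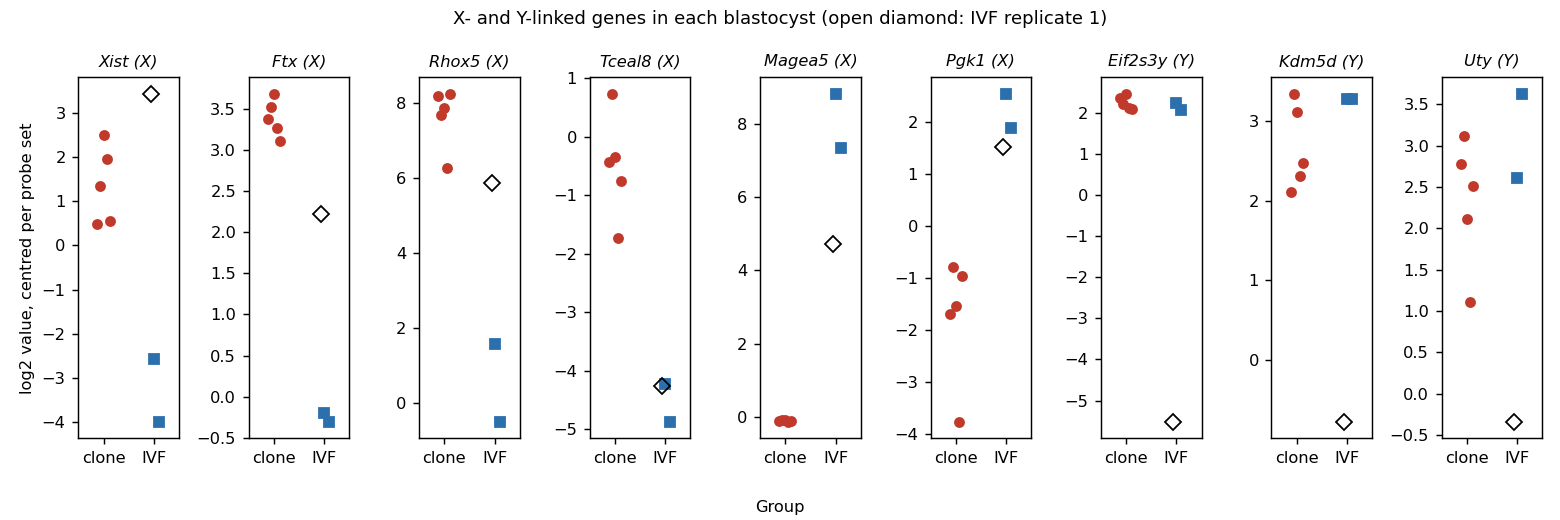
Centred log2 values (y axis, one scale for each gene) of 6 X-linked and 3 Y-linked genes in 5 clones (red circles, left) and 3 IVF embryos (right, blue squares, with replicate 1 as an open diamond). Replicate 1 is the lowest embryo for Eif2s3y, Kdm5d and Uty and the highest for Xist; for Pgk1 and Magea5 all IVF embryos lie above the clones.

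Among genes imprinted through H3K27me3 more members were higher in clones than lower. Of 28 measured members 9 were called higher and 1 lower, beside 2.84% and 3.34% of all genes, and the median difference was 0.436. Slc38a4, an amino acid transporter of the placenta, read 8.16, 8.12, 8.08, 7.94 and 7.82 in the clones, against 5.62, 6.21 and 6.42 in the IVF embryos. No clone overlapped an IVF embryo, and the difference was 1.94 ± 0.18 (adjusted p = 0.00536). Gab1, a docking protein of growth factor receptors, read 2.41, 2.96, 2.44, 2.73 and 2.55 in the clones, against 1.16, 1.11 and 1.22 in the IVF embryos (difference 1.45 ± 0.13, adjusted p = 0.00454). The others were Enc1, a kelch protein (1.98 ± 0.27), Bbx, a HMG-box protein (1.86 ± 0.32), Epas1, a hypoxia-inducible factor (1.74 ± 0.25), Rbms1, an RNA-binding protein (1.60 ± 0.19), Mbnl2, a splicing regulator (1.40 ± 0.19), Gramd1b, a sterol transporter (1.22 ± 0.21), and Gask1b (0.95 ± 0.17). Otx2, a homeobox gene, was lower by -2.56 ± 0.57. The 9 rises became 3 with the hybridisation controls as a covariate, and 0 with either array covariate or with all 51 arrays in 1 fit.

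Not every member passed. Sfmbt2, a Polycomb protein needed for the placenta, read 6.54, 7.34, 5.39, 7.59 and 7.35 in the clones, against 5.96, 5.65 and 4.56 in the IVF embryos (difference 1.45 ± 0.58, adjusted p = 0.233). Jade1 read 0.43, 0.78, 1.09, 0.84 and 0.94 in the clones, against 0, 0.38 and 0.24 in the IVF embryos, without overlap between the groups but with an adjusted p of 0.0774. None of the 28 was called by limma at the morula stage or in the interaction with it. At an unadjusted p under 0.05, 7 were higher at the morula stage and 4 had a lower interaction. How many of all genes passed these cuts was not counted, so neither count can be set against a background share. The morula median was 0.365. At the 1-cell, 2-cell, 4-cell and 8-cell stages 0, 2, 1 and 1 members were higher and 0, 0, 1 and 1 lower. Over all genes 6.31%, 2.37%, 2.26% and 6.62% were called there in either direction. Of 30 measured classical imprinted genes 1 was called, Cd81, a share close to the 2.84% of all genes called higher. Cd81 read 5.44, 5.79, 4.69, 5.90 and 4.78 in the clones, against 1.91, 0.53 and -0.40 in the IVF embryos (difference 4.64 ± 0.56). The median of that list was -0.00839.

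In lists of translation, respiration and protein turnover some members were called lower in clones and nearly none higher, while most members did not pass the test. Of 42 cytosolic ribosomal protein genes 15 were called lower and none higher, beside 3.34% and 2.84% of all genes, with a median of -0.232. At an unadjusted p under 0.05, 2 were higher and 24 lower, beside 3583 of all 18193 genes in either direction. Rps6 read 0, 0.16, 0.17, 0.035 and 0.29 in the clones, against 0.99, 0.92 and 0.83 in the IVF embryos (difference -0.78 ± 0.074), Rps15 averaged -0.21 ± 0.13 in clones and 0.90 ± 0.20 in IVF embryos, and Rpl38 averaged 0.024 ± 0.033 in clones and 0.39 ± 0.089 in IVF embryos. Rpl39l, a paralog of Rpl39 abundant in testis, differed most at -1.98 ± 0.31. Of 35 genes of nucleolar ribosome biogenesis 6 were lower and none higher. Among them were Fbl, the RNA methyltransferase fibrillarin (-0.58 ± 0.065), Nolc1 (-1.16 ± 0.13), and Polr1a and Polr1b, the large subunits of RNA polymerase I (-1.12 ± 0.14 and -1.18 ± 0.15). The highest-mean probe set of Polr1a differed by 0.273 (adjusted p = 0.850), so its fall holds for one of its probe sets.

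In the mitochondrial respiratory chain 14 of 51 genes were lower and 1 was higher, beside 3.34% and 2.84% of all genes, with a median of -0.207. Subunits of ATP synthase were among them, with Atp5o at 2.46, 2.38, 2.26, 2.43 and 2.43 in the clones, against 3.09, 3.00 and 3.27 in the IVF embryos (difference -0.73 ± 0.072) and Atp5e at -0.74 ± 0.074. Sdhb of complex II differed by -0.64 ± 0.068, Ndufa8 of complex I by -0.78 ± 0.092 and Uqcrh of complex III by -0.71 ± 0.089. Cox5a of complex IV was the one that rose (0.35 ± 0.065). In the proteasome 5 of 34 were lower (Psma2, Psma5, Psma6, Psmb1 and Psmb6, with differences of -0.83 to -0.43), none was higher, and the median was -0.429. Called by the interaction test, with the difference lower at the blastocyst than at the morula stage, were 10 ribosomal, 8 respiratory and 3 proteasome genes, beside 0.945% of all genes. None of the falls in the respiratory list reached 2-fold. Without the IVF embryo of replicate 1, 7 ribosomal and 8 respiratory genes were lower, and with either array covariate, or with all 51 arrays in 1 fit, none was.

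In the cell cycle lists calls went in both directions, with more of them lower in clones. Of 32 genes of mitosis 8 were lower and 1 was higher, beside 3.34% and 2.84% of all genes, with a median of -0.354. Espl1, which cleaves cohesin, differed by -0.96 ± 0.13, Tpx2, a spindle assembly factor, by -0.92 ± 0.15, Ube2c, an enzyme of the anaphase-promoting pathway, by -0.91 ± 0.14, Bub1b, a spindle checkpoint kinase, by -0.90 ± 0.13 and Cdk1 by -0.73 ± 0.15. Ccna2, cyclin A2, was higher by 0.47 ± 0.096. Of 38 genes of DNA replication and the G1 to S transition 4 were lower (Gins1, Cdk4, Cdk2 and Rfc5, with differences of -0.65 to -0.24) and 1 was higher, with a median of -0.247. That one was Ccne1, cyclin E1, which read -1.52, -1.32, -1.64, -0.74 and -1.51 in the clones, against -3.70, -2.59 and -2.79 in the IVF embryos (difference 1.68 ± 0.31, adjusted p = 0.0291).

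Few genes of glucose metabolism and stress were called. Of 22 genes of glucose transport and glycolysis 3 rose and 1 fell, beside 2.84% and 3.34% of all genes. Ldha, the lactate dehydrogenase subunit, read 2.38, 3.21, 4.39, 2.77 and 3.78 in the clones, against 0.65, 0.61 and -0.32 in the IVF embryos (difference 2.99 ± 0.50, adjusted p = 0.0224). Pdk1, a kinase that restrains pyruvate entry into mitochondria, read 0.65, 1.05, 1.46, 0.55 and 2.05 in the clones, against -1.05, -0.69 and -0.89 in the IVF embryos (difference 2.03 ± 0.35), and Tpi1 differed by 0.88 ± 0.17, while the X-linked Pgk1 fell. Of 31 genes of heat shock and the unfolded protein response 4 rose and 1 fell. Hspa1b, an inducible chaperone, read 0.19, -0.49, 0.15, -1.59 and 0.12 in the clones, against -2.53, -4.16 and -3.54 in the IVF embryos (difference 3.09 ± 0.54), and Hspa1a, Dnaja1 and Hspe1 rose by 0.52 to 0.56. Hspa1a and Hspa1b are near-identical copies, so their probe sets may share signal. Hsp90b1, a chaperone of the endoplasmic reticulum, fell by 0.94. None of 24 p53 targets and cell death genes was called by limma, and their median was 0.340. At an unadjusted p under 0.05, 8 of them were higher, Cdkn1a (1.97 ± 0.52) and Pmaip1 (2.14 ± 0.51) included. Of all 18193 genes 3583 passed that cut in either direction.

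Markers of the blastocyst's lineages mostly did not pass the test, beside 2.84% higher and 3.34% lower over all genes. Of 29 trophectoderm genes none was called by limma, 2 were higher and 5 lower at an unadjusted p under 0.05, and the median was -0.0092. That cut was passed by 3583 of all 18193 genes in either direction. Cdx2 read 8.20, 8.01, 7.74, 8.06 and 8.39 in the clones, against 8.19, 8.27 and 8.23 in the IVF embryos, with a difference of -0.15 ± 0.14. Gata3 differed by 0.13 ± 0.073, and Eomes, which read 7.20, 5.32, 6.33, 7.03 and 7.38 in the clones, against 5.16, 5.44 and 5.30 in the IVF embryos, by 1.35 ± 0.48 (adjusted p = 0.174). Of 28 genes of the inner cell mass 1 rose, Dppa4 (0.70 ± 0.094), and 2 fell, Klf2 (-1.38 ± 0.26) and Sall4 (-0.55 ± 0.069), all of them pluripotency factors. Nanog differed by 0.30 ± 0.17 and Pou5f1 by -0.62 ± 0.19 (adjusted p = 0.132). Sox2 read 5.39, 3.93, 4.69, 3.91 and 3.93 in the clones, against 5.86, 5.80 and 5.69 in the IVF embryos, without overlap, and its difference of -1.41 ± 0.37 had an adjusted p of 0.0819.

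Of 22 primitive endoderm genes 1 was called higher and 1 lower, shares close to the 2.84% and 3.34% of all genes. Gata6, its early regulator, was higher at 1.31, 1.26, 1.26, 1.00 and 1.08 in the clones, against 0.52, 0.15 and 0.70 in the IVF embryos (difference 0.73 ± 0.14, adjusted p = 0.0303), and Lrp2, the endocytic receptor megalin, was lower at 9.22, 9.04, 8.69, 8.57 and 8.56 in the clones, against 10.21, 10.08 and 10.41 in the IVF embryos (difference -1.42 ± 0.18). Gata4 and Sox17 varied between clones. Gata4 read -2.22, 0.60, 1.06, 0.064 and 0.67 in the clones, against -2.12, -2.01 and -2.07 in the IVF embryos, so 4 clones lay above all IVF embryos and clone 1 lay below them. Sox17 read 4.24, 9.11, 9.73, 8.65 and 9.99 in the clones, against 5.35, 7.16 and 8.02 in the IVF embryos, again with clone 1 lowest. Of 27 junction and cavitation genes 3 rose and none fell. These were Ctnnb1, beta-catenin (0.87 ± 0.13), Ctnna1, alpha-catenin (0.31 ± 0.052), and Dsp, desmoplakin (0.56 ± 0.099), but the highest-mean probe set of Ctnna1 differed by -0.329. Of 40 genes of FGF, Nodal and Hippo signalling 3 rose, namely the proprotein convertase Furin (0.85 ± 0.14) and the Hippo pathway genes Yap1 (0.73 ± 0.11) and Sav1 (0.64 ± 0.14).

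In the remaining lists few genes were called, beside 2.84% higher and 3.34% lower over all genes. Of 46 chromatin regulators 4 fell and 1 rose. Tet1, which oxidises methylcytosine, read 0.22, -0.44, 0, 0.33 and 0.55 in the clones, against 1.35, 1.63 and 1.16 in the IVF embryos (difference -1.25 ± 0.23), and Ezh1 (-0.95 ± 0.14), Hdac1 (-0.64 ± 0.093) and Ep300 (-0.62 ± 0.13) fell too, while Rnf2, a Polycomb ubiquitin ligase, rose (0.50 ± 0.070). Dnmt1 differed by 0.30 ± 0.25 and Dnmt3b by 0.016 ± 0.19, neither of them called. Of 16 genes of zygotic genome activation 2 rose, Dppa2 (0.96 ± 0.15) and Dppa4, which activate 2-cell genes, but the highest-mean probe set of Dppa2 differed by -0.0794. Of 26 maternal oocyte factors 2 fell, Gtsf1 (-2.74 ± 0.55) and Nlrp14 (-1.30 ± 0.27). Of 24 Sertoli cell markers 1 was higher, Aard, which read 4.33, 5.78, 5.49, 4.99 and 5.37 in the clones, against 1.99, 3.04 and 3.41 in the IVF embryos (difference 2.38 ± 0.43), and 4 were higher at an unadjusted p under 0.05. Sox9 (0.0091) and Amh (-0.0073), which define Sertoli cells, were not called. Nor were Gata4 (2.10 ± 0.73) and Rhox5, members of the same list with higher clone means. Without the IVF embryo of replicate 1, Rhox5 was called by limma (7.11, adjusted p = 0.0162). Of the 24 markers 13 had a higher and 11 a lower clone mean. No gene was called by limma in the lists for Leydig, cumulus, sperm, blood and Y-linked genes. None was called in those for antigen presentation and interferon response. At an unadjusted p under 0.05, 1 cumulus gene was lower. Antigen presentation had 1 higher and 1 lower at that cut, and interferon response had 1 and 2. Of all 18193 genes 3583 had an unadjusted p under 0.05 in either direction.

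Fewer genes were called at the morula stage, where 30 passed (0.165%), 14 higher in clones (0.077%) and 16 lower (0.0879%). A smaller count does not mean smaller differences. For example, Rlim differed there by -5.62 ± 0.94, Pnma5 by -5.21 ± 0.85 and Sox2 by -5.13 ± 0.82. At the blastocyst they differed by -1.04 ± 0.28, -1.02 ± 0.17 and -1.41 ± 0.37. None of these genes was called by limma at the morula stage (adjusted p between 0.0783 and 0.0836). How the spread of the 2 stages compares over all genes was not tested. In the interaction test 350 genes had a difference that was not the same at both stages (1.92%), 178 of them higher at the blastocyst (0.978%) and 172 lower (0.945%). Of the 350 genes 181 were also called at the blastocyst with the same sign. Both tests use the same blastocyst arrays, so this overlap is not independent support. The genes called at both stages were Mageb16, Rps6ka6, Fgd1, Rab38, Pitx1, Rragd, Fos and Trim2, all with the same sign at both, and they were chosen after their values were seen.

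Large interactions were of different kinds. Alcam differed by 4.63 at the blastocyst and 0.24 at the morula stage (interaction 4.39 ± 0.39, adjusted p = 0.000219), so its rise belonged to the later stage. Ankrd33b differed by 2.56 and -3.89 (interaction 6.45 ± 0.86), Tiparp, an ADP-ribosyltransferase, by 1.37 and -3.02 (interaction 4.39 ± 0.62). Rlim, the X-linked ubiquitin ligase that promotes Xist, differed by -1.04 and -5.62, and Pnma5 by -1.02 and -5.21, so both were less far below IVF embryos as blastocysts. H2-K1, a class I histocompatibility gene, stood at 0.56 ± 0.92 in cloned and 5.95 ± 0.15 in IVF morulae, and at 5.53 ± 0.52 in cloned and 4.97 ± 0.42 in IVF blastocysts (interaction 5.95 ± 0.64, adjusted p = 0.000675). Its difference at the blastocyst was 0.55 ± 0.34 and was not called.

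In the other direction Ndrg1, a stress-induced gene, differed by -1.02 at the blastocyst and 4.27 at the morula stage (interaction -5.29 ± 0.81). Lgals4, an epithelial galectin, stood at 3.00 ± 1.19 in cloned and 6.24 ± 0.27 in IVF blastocysts, and near baseline in both groups of morulae (interaction -3.67 ± 0.79, adjusted p = 0.0369). Stmn3 (-4.12 ± 0.68) and Oas1f (-3.43 ± 0.45) fell at the blastocyst with morula differences of 0.24 and 0.035. Dmc1, a meiotic recombinase (-4.19 ± 0.64), and Bptf, a chromatin remodeller (-3.22 ± 0.59), had the same direction without being called at the blastocyst itself. Without the IVF embryo of replicate 1 the interaction counts were 91 higher and 108 lower.

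**Figure D5:**
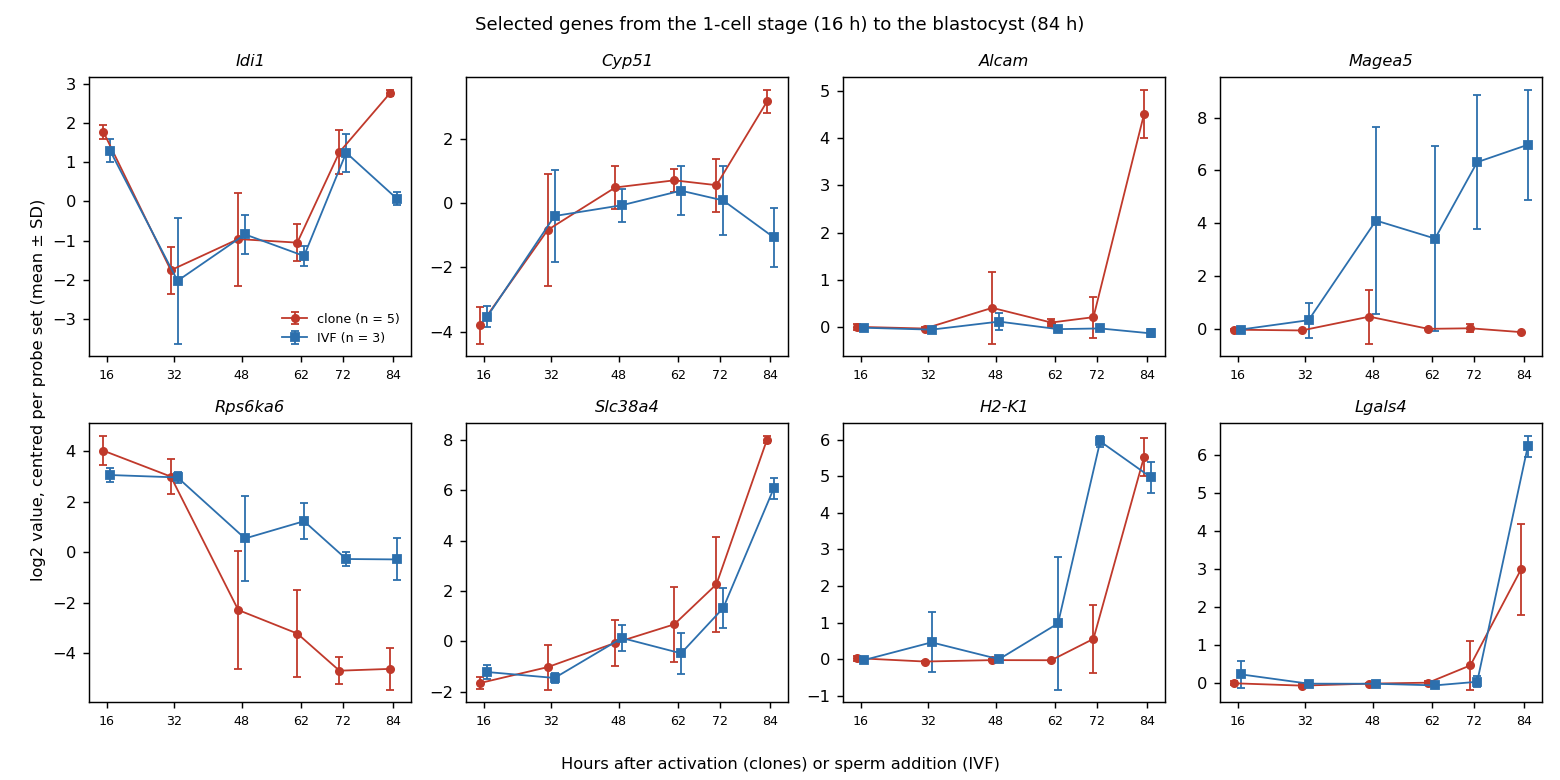
Centred log2 values (y axis, mean ± SD) of 8 genes in clones (red circles, n = 5) and IVF embryos (blue squares, n = 3) at 16, 32, 48, 62, 72 and 84 hours (x axis). Idi1, Cyp51 and Alcam were called at 84 hours and at none of the other 5 times, and H2-K1 was called at 72 hours but not at 84 hours. Rps6ka6 has a lower clone mean from 48 hours on. Magea5 has one at every time, with differences of -0.0065 at 16 hours, -0.39 at 32 hours and -3.63 at 48 hours.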

How the data were processed

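RNA of single embryos was hybridised to 51 Affymetrix mouse arrays after 2 cycles of cRNA synthesis, per the labels' protocols. The authors deposited 1 table of log2 values made with RMA, per the submitters' processing notes (no version given). The log base is not stated and was taken from the range of the values. In 94.3% of probe sets exactly 1 array was at 0, so each probe set of the deposited table carries its own zero on the log2 scale. Detection calls were not used here, and arrays have no depth, so the number of embryos limits precision.

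Of 45101 probe sets, 64 were controls, 34945 had 1 symbol, 932 several and 9160 none. Symbols came from the platform annotation, updated by gene number to RefSeq. Fits used limma 3.58.1 in R 4.3.3 (lmFit, eBayes), groups as labelled, with no covariates; figures used matplotlib 3.10.9. The fit was tested on simulated data. No 2 arrays were identical. The labels call replicates biological and name no litter or day. Replicate numbers did not pair the embryos: same-numbered deviations correlated at 0.0443, 0.0002 and 0.0019.

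Genes named included the 14 largest called changes in each direction without overlap. The 6 largest called interactions in each direction were taken only among genes without overlap at the blastocyst. Up to 4 genes of each list by adjusted p and 18 chosen genes were added. Further called genes of the lists and of the X chromosome were also named. Members and lists were chosen with earlier results of these data known.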

Additional observations from a re-analysis of the deposited data

Results flagged for a closer look

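In 18 of 153 named genes 1 clone stood farther from the other 4 than Dixon's test allows, where chance flags about 1 gene in 20. Clone 1 read 3.81 for Cyp51, -2.76 for Asz1, 4.24 for Sox17 (the other clones read 8.65 to 9.99), 3.15 for Fxyd4, -0.33 for Irf1, -0.085 for Fcer1g and -0.028 for Ptprc. Clone 2 read -0.777 for Hspa1a. Clone 3 read -3.15 for Rps6ka6 (the others -5.08 to -4.93), -4.07 for Obox5, 5.94 for Tpi1, 2.63 for Hsd17b7 and 0.406 for Lss. Clone 4 read -8.51 for Stmn3 (the others -6.55 to -6.19), -0.081 for Nap1l5, 2.40 for Plagl1 and -4.89 for Nlrp14. Clone 5 read 2.67 for Ly6e. Of the flagged genes, Cyp51, Asz1, Rps6ka6, Stmn3, Hsd17b7, Lss, Tpi1, Hspa1a and Nlrp14 were called at the blastocyst. In each of them all clones still lay on one side of all IVF embryos.

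The clone minus IVF difference was not the same at the blastocyst and the morula stage, by the interaction test, for 33 of these 153 genes. Part of the 153 were named for large interactions or blastocyst differences, so this count supports nothing. It was higher at the blastocyst, by the log2 amounts given, for Ankrd33b (6.45), H2-K1 (5.95), Rlim (4.59), Alcam (4.39), Tiparp (4.39), Mvd (4.26), Pnma5 (4.19), Cyp51 (3.76), Rab15 (3.66), Cited2 (3.54), Msmo1 (3.27), Cd47 (3.10), Ccne1 (3.07), Idi1 (2.68), Aard (2.37), Dppa4 (1.55), Dppa2 (1.36) and Rnf2 (0.963). It was lower for Ly6e (-6.37), Ndrg1 (-5.29), Dmc1 (-4.19), Stmn3 (-4.12), Lgals4 (-3.67), Oas1f (-3.43), Bptf (-3.22), Ube2c (-1.72), Psmb6 (-1.70), Atp5o (-1.27), Psmb1 (-1.25), Rps15 (-1.10), Sdhb (-0.961), Nop56 (-0.928) and Rpl38 (-0.373). Ly6e, a surface protein grouped with the histocompatibility genes, differed by 0.73 at the blastocyst and 7.10 at the morula stage. Further genes named outside that set were higher at the blastocyst in the same test. They included the sterol genes Sqle, Tm7sf2, Hmgcs1 and Mvk given above, Parva (3.31), Myl9 (3.28), Upk1b (3.07), Rab38 (2.30) and Pitx1 (1.27). Cd109 (-3.18) and Efnb1 (-2.46) were lower.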

How the results depend on the processing

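Counts of called genes, given as higher and lower against 517 and 608, were 276 and 259 with all 51 arrays in 1 fit, 291 and 341 with the highest-mean probe set, 163 and 177 with hybridisation controls as a covariate, 5 and 3 with the 3′ minus 5′ difference, 2 and 4 with poly-A controls (chosen after seeing the data), 263 and 270 at 2-fold, and 0 and 0 with the replicate block, when 2872 genes had an unadjusted p under 0.05. X-linked falls, 68 before, numbered 34, 21, 1, 0 and 0 with the highest-mean probe set, hybridisation, 3′ minus 5′, poly-A and the block. Sterol rises, 16 before, numbered 1, 1 and 0 with 3′ minus 5′, poly-A and the block. Rises among H3K27me3-type genes, 9 before, numbered 0 with all arrays, 3 with hybridisation, and 0, 0 and 0 with 3′ minus 5′, poly-A and the block. Respiratory falls, 14 before, numbered 0 with all arrays, 6 with hybridisation, 0 at 2-fold, and 0, 0 and 0 with 3′ minus 5′, poly-A and the block. Ribosomal falls, 15 before, numbered 0 with all arrays, 8 with the highest-mean probe set, 6 with hybridisation, 2 at 2-fold, and 0, 0 and 0 with 3′ minus 5′, poly-A and the block. Interactions were 118 higher with the highest-mean probe set, and 81 and 84 with the replicate block. The block stands for numbers that did not pair the embryos.

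Leaving out 1 embryo gave 265 to 381 rises, 280 to 506 falls, 27 to 62 X-linked falls, 12 to 16 sterol, 6 to 9 H3K27me3-type, 8 to 13 respiratory and 7 to 14 ribosomal calls, and 87 to 139 and 101 to 143 interactions. With the highest-mean probe set 1024 of the 1125 called genes kept their sign, and among the genes chosen by the naming rule Ctnna1 (-0.329), Dppa2 (-0.0794) and Polr1a (0.273) changed sign. The cause was not tested. Median centring, quantile normalization, trend and robust eBayes, the mean of all probe sets, leaving out X- and Y-linked genes and leaving out the 30% of genes with the smallest SD kept each total within 1.5 times, at 1038 to 1441 called genes. How far signals lay above background is not known from these values.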

Other observations

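Some actin-binding genes outside the lists above were also higher in clones. In a group of 34 chosen after values were seen, which therefore supports nothing, 8 were called higher and 1, the X-linked Msn, lower, beside 2.84% and 3.34% of all genes. Vcl, the focal adhesion protein vinculin, differed by 1.55 ± 0.18, Parva, a parvin, by 3.31 ± 0.48, Myl9, a myosin light chain, by 3.27 ± 0.66, Zyx, zyxin, by 1.11 ± 0.15 and Tpm4, a tropomyosin, by 0.93 ± 0.045. Acta2, Cnn1 and Tagln, which mark smooth muscle, differed by -0.0083, 0.011 and -0.0071 and were not called. In a group of 24 surface genes, chosen after values were seen in the same way, 8 were called higher and 3 lower. App, Cd47, Alcam and Cd81 were joined by Upk1b, a uroplakin (3.08 ± 0.55), Ackr3, a chemokine receptor (2.86 ± 0.60), Cd24a (0.92 ± 0.14) and Itgb1, the beta-1 integrin (0.84 ± 0.16). Lower in clones were Cd109 (-3.12 ± 0.37) and the X-linked Cd99l2 (-3.04 ± 0.40) and Efnb1 (-2.53 ± 0.20).

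Genes known to answer to low oxygen did not move one way. In a group of 32, likewise chosen after values were seen, 6 were called higher and 2 lower, beside 2.84% and 3.34% of all genes, with a median of 0.0521. Ero1a, an oxidase of the endoplasmic reticulum (3.24 ± 0.28), and Plod2, a collagen hydroxylase (3.39 ± 0.66), were higher beside Cited2, Ldha, Pdk1 and Tpi1, while Ndrg1 (-1.02 ± 0.19) and Pgk1 (-3.74 ± 0.70) were lower and Slc2a1 (-0.56 ± 0.20) and Egln3 (-2.07 ± 0.77) were not called.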
